A study of Mus musculus with 11 samples.

Results

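Mbp, Sox10, S100b, Cdh19 and Pmp22 are genes of Schwann cells and of the myelin that these cells make. They were found by symbol, as all 5 requested genes of 55487 gene identifiers, in RNA sequencing counts from hearts of female C57BL/6NTac mice, and all 5 passed the filter on low counts. The mice were 8 weeks old at the start and were fed for 24 weeks. Control mice (4 libraries) ate a diet with 10.4% of its energy from fat. Obese mice (4 libraries) ate an obesogenic diet, which paired a high-fat chow (60.3% of energy as fat) with sweetened condensed milk, and were gavaged with the vehicle, 10% PEG400. Treated mice (3 libraries) ate the same obesogenic diet and from week 16 received dasatinib at 5 mg/kg with quercetin at 50 mg/kg in that vehicle. Dasatinib inhibits tyrosine kinases and quercetin is a flavonoid from plants. Together they are used as a senolytic cocktail, intended to clear senescent cells. No source used here says whether control mice were gavaged too, so diet and gavage cannot be told apart.

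Schwann cells are the glia of peripheral nerves. Myelinating Schwann cells wrap 1 large axon in many layers of membrane, while non-myelinating Schwann cells hold small axons in shallow grooves, and the nerves inside the heart are mostly of the second kind. The transcription factor SOX10 is needed throughout the life of a Schwann cell and drives myelin genes together with EGR2. MBP packs the inner faces of the myelin membrane and PMP22 spans the membrane of compact myelin. S100B is a calcium-binding protein and cadherin 19 an adhesion protein, both widely used as glial markers. Pmp22 is also expressed outside nerve, in epithelia and fibroblasts, and Mbp makes Golli transcripts in other cells as well.

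Pmp22 was the only one of the 5 genes to pass the test in any comparison, and it has several start sites. The counts are per gene and cannot say which start was used. Of 4 windows upstream of its starts, the first 2 along the chromosome are shown. They are RefSeq promoter sequence of GRCm38.p6, plus strand, chr11:63128732-63128981 and chr11:63131207-63131456, with matches to CCAAT and to GGGCGG in capitals, on either strand.
Pmp22 first window: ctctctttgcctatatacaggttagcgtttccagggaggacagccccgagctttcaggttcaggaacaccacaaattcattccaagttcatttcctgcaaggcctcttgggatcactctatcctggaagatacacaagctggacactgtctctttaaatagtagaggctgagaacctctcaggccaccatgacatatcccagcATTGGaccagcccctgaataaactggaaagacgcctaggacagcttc
Pmp22 second window: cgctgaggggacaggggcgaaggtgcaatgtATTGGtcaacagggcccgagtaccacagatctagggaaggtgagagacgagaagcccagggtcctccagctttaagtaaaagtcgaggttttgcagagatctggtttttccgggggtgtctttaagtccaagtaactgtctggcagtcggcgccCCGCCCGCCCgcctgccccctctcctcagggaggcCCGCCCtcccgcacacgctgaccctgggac
The first window held 1 match to CCAAT and 0 to GGGCGG, with 48.8% G and C. The second held 1 match to CCAAT and 3 to GGGCGG, some overlapping, with 61.2% G and C. Neither held ACAAAG or ACAATG, cores of sites bound by SOX proteins. The other 2 windows, not shown, held 64.8% and 73.6% G and C. They had 0 and 3 matches to GGGCGG, and 0 to CCAAT or to these cores. Among 32851 promoter windows of the same length, CCAAT occurred in 33.8%, GGGCGG in 32.7%, ACAAAG in 16.5% and ACAATG in 10.7%, and the median content of G and C was 52.4%. The table of promoters held 2 of the 5 genes, S100b and Pmp22.

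Library totals ran from 73.1 to 103.3 M counts on the control diet, from 52.7 to 67.2 M in obese and from 64.2 to 72.3 M in treated libraries. Levels are CPM, the count as a share of the library scaled to 1e+06, with library sizes scaled by TMM, and 10 counts were worth 0.112 to 0.171 CPM. The share of counts in sense-intronic and TEC loci was 0.286% to 0.59% on the control diet, 0.663% to 0.811% in obese and 0.509% to 0.671% in treated libraries. Genes of the mitochondrial chromosome took 28.2% to 32.3% of counts in control libraries, 21.4% to 24.5% in obese and 17.8% to 22.4% in treated libraries. Obese replicate 3 and treated replicates 2 and 3 stood apart by atrial myocyte markers. The summed level of 8 such markers was 2510, 3290 and 6340 CPM in these 3 libraries and 189 to 470 CPM in the other 8. The adipocyte marker score, a mean log2 CPM of 10 markers, was -2.868 to -2.096 in control libraries. It was -1.772 to 0.949 in obese and -1.339 to 1.222 in treated libraries, with no overlap with controls. The intronic share did not overlap between control and obese libraries either. Fits with these as covariates therefore cannot tell them apart from the diet. The summed CPM of the same 10 adipocyte markers did overlap between groups. It was 328 to 434 in control, 273 to 481 in obese and 390 to 597 in treated libraries. Where levels are compared between genes they are given as CPM per kilobase of merged exons.

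Sox10 was lowly expressed, at 0.488 CPM per kilobase over all libraries. In GRCm38 it lies on chromosome 15 from 79154908 to 79165240, on the minus strand. Its level was 1.27, 1.18, 1.41 and 1.14 CPM in control replicates 1 to 4. In obese replicates 1 to 4 it was 1.1, 1.16, 2.4 and 0.787 CPM, and in treated replicates 1 to 3 it was 1.66, 1.94 and 2.35 CPM. All treated libraries lay above all control libraries, while obese replicate 3 was the highest of all and obese replicate 4 the lowest. Group means were 1.25 ± 0.123 (SD, n = 4), 1.36 ± 0.71 (SD, n = 4) and 1.98 ± 0.35 CPM (SD, n = 3). Sox10 passed in no comparison by edgeR's quasi-likelihood test. The log2 fold change was 0.12 for obese against control (SE 0.3, adjusted p = 0.789), 0.54 for treated against obese (SE 0.32, adjusted p = 0.562) and 0.66 for treated against control (SE 0.32, adjusted p = 0.167). The 95% interval of the last ran from -0.02 to 1.35. The value for obese against control was -0.30 without obese replicate 3, and the value for treated against control was -0.07 with the adipocyte marker score as a covariate.

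Mbp is on chromosome 18 from 82475146 to 82585637, on the plus strand, and its counts pool the classic myelin and the Golli transcripts. Its mean over all libraries was 0.569 CPM per kilobase. Control replicates 1 to 4 held 5.28, 2.62, 3.41 and 3.04 CPM. Obese replicates 1 to 4 held 2.07, 3.44, 7.43 and 2.93 CPM, and treated replicates 1 to 3 held 2.59, 9.9 and 10.3 CPM. Treated replicates 2 and 3 were the highest of the 11 libraries and treated replicate 1 was lower than all but obese replicate 1, so the treated group spanned nearly the whole range. Group means were 3.59 ± 1.17 (SD, n = 4), 3.97 ± 2.38 (SD, n = 4) and 7.59 ± 4.33 CPM (SD, n = 3). The log2 fold change was 0.14 for obese against control (SE 0.47, edgeR adjusted p = 0.84). It was 0.94 for treated against obese (SE 0.5, 95% interval -0.16 to 2.04, edgeR adjusted p = 0.544) and 1.08 for treated against control (SE 0.5, 95% interval -0.02 to 2.18, edgeR adjusted p = 0.162). Without treated replicate 1 the last was 1.49 and passed (edgeR adjusted p = 0.0409). Its direction turned under others: it was -0.17 with the atrial marker score as a covariate (edgeR adjusted p = 0.855), -0.66 with the adipocyte marker score (edgeR adjusted p = 0.487) and -0.46 without obese replicate 3 and treated replicates 2 and 3 (edgeR adjusted p = 0.544). Without obese replicate 3, Mbp in obese against control was -0.35 (edgeR adjusted p = 0.563).

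Pmp22 had the highest level of the 5 genes, 11.5 CPM per kilobase. It is on chromosome 11 from 63128982 to 63159547, on the plus strand. Control replicates 1 to 4 held 25.2, 19.4, 22.4 and 22.7 CPM. Obese replicates 1 to 4 held 18.1, 27.1, 32.3 and 23.5 CPM, and treated replicates 1 to 3 held 25.9, 44.5 and 38 CPM. Every treated library lay above every control library, although treated replicate 1 did so by less than 1 CPM, and obese libraries overlapped both. Group means were 22.4 ± 2.37 (SD, n = 4), 25.2 ± 5.98 (SD, n = 4) and 36.1 ± 9.45 CPM (SD, n = 3). Pmp22 rose 1.61-fold in treated against control hearts (log2 fold change 0.69, SE 0.2, edgeR adjusted p = 0.0337). For treated against obese the log2 fold change was 0.52 (SE 0.2, unadjusted p = 0.0206, edgeR adjusted p = 0.418), and for obese against control it was 0.17 (SE 0.18, edgeR adjusted p = 0.505), or -0.36 with the adipocyte marker score as a covariate (edgeR adjusted p = 0.124). The mitochondrial share also separated treated from control libraries. With the mitochondrial chromosome removed, Pmp22 in treated against control was 0.69 (edgeR adjusted p = 0.0335). Removing those genes can act on Pmp22 mainly through library scaling, and it moved the median of all genes by only -0.001 (log2). That fit therefore cannot show the part of the mitochondrial share in the rise of Pmp22, which was not tested.

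The call of Pmp22 was kept in 16 of 27 alternative analyses. It was lost without any 1 of control replicates 1 to 4 (edgeR adjusted p = 0.0584, 0.0744, 0.0732 and 0.0823), without treated replicate 2 (log2 fold change 0.51, edgeR adjusted p = 0.129) and without treated replicate 3 (0.65, edgeR adjusted p = 0.121). With the atrial marker score as a covariate the log2 fold change was 0.26 (edgeR adjusted p = 0.394), and with the adipocyte marker score it was 0.01 (edgeR adjusted p = 0.987). The adipocyte score itself separated treated from control libraries, so that fit cannot tell it apart from the group. With the intronic share as a covariate the log2 fold change was 0.84 (edgeR adjusted p = 0.15). Without obese replicate 3 and treated replicates 2 and 3 it was 0.22 (edgeR adjusted p = 0.587), with treated replicate 1 then alone in its group and assumed to vary like the others.

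S100b is on chromosome 10 from 76253853 to 76261159, on the plus strand, at 0.596 CPM per kilobase. Control replicates 1 to 4 held 0.637, 0.717, 0.594 and 0.546 CPM. Obese replicates 1 to 4 held 0.462, 1.12, 1.98 and 0.962 CPM, and treated replicates 1 to 3 held 0.636, 1.06 and 1.01 CPM. Of the obese libraries 3 lay above all control libraries and replicate 1 lay below them all. Group means were 0.624 ± 0.0725 (SD, n = 4), 1.13 ± 0.632 (SD, n = 4) and 0.904 ± 0.233 CPM (SD, n = 3). The log2 fold change for obese against control was 0.86 (SE 0.36, 95% interval 0.08 to 1.64, unadjusted p = 0.034, edgeR adjusted p = 0.0886). Without obese replicate 1 it was 1.12 and passed (edgeR adjusted p = 0.0223). Without obese replicate 3 it was 0.44 (edgeR adjusted p = 0.321), and with the adipocyte marker score as a covariate it was -0.09 (edgeR adjusted p = 0.886). For treated against obese it was -0.32 (edgeR adjusted p = 0.793), and for treated against control 0.54 (edgeR adjusted p = 0.364). The last was -0.26 with the atrial and -0.58 with the adipocyte marker score as a covariate.

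Cdh19 is on chromosome 1 from 110888326 to 110977584, on the minus strand, at 2.61 CPM per kilobase. Control replicates 1 to 4 held 10.7, 7.01, 7.06 and 7.3 CPM. Obese replicates 1 to 4 held 8.92, 9.02, 25.2 and 8.76 CPM, and treated replicates 1 to 3 held 12.9, 11.8 and 14.4 CPM. Obese replicate 3 was far above every other library, and all treated libraries lay above all control libraries. Group means were 8.01 ± 1.77 (SD, n = 4), 13 ± 8.15 (SD, n = 4) and 13 ± 1.28 CPM (SD, n = 3). The log2 fold change for obese against control was 0.70 (SE 0.32, edgeR adjusted p = 0.123) and 0.15 without obese replicate 3. For treated against obese it was 0.01 (SE 0.35, edgeR adjusted p = 0.997). For treated against control it was 0.70 (SE 0.35, 95% interval -0.05 to 1.46, edgeR adjusted p = 0.186), and it passed in 3 of 27 alternatives. Among them was the fit without obese replicate 3 (0.70, edgeR adjusted p = 0.0118), a library that enters this comparison only through the joint fit. The log2 fold change was 0.30 with the atrial (edgeR adjusted p = 0.643) and 0.13 with the adipocyte marker score as a covariate (edgeR adjusted p = 0.895).

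**Figure D1:**
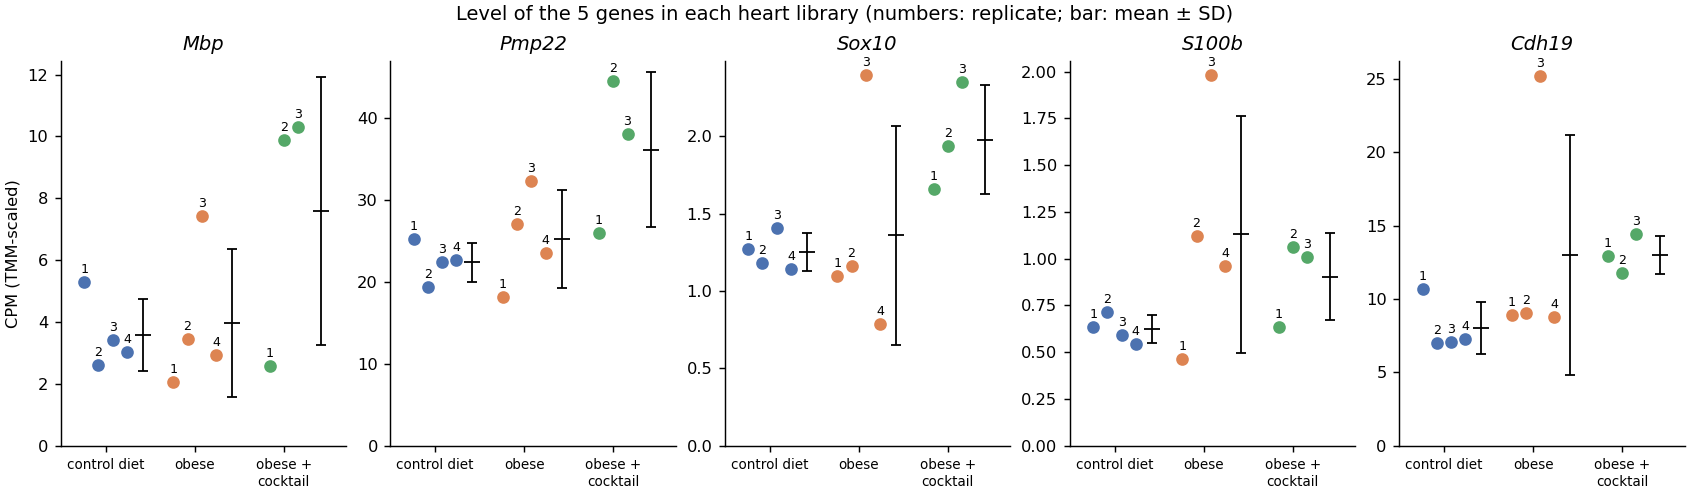
Level of each gene in CPM (vertical axes, each from 0) in every library, by group, with replicate numbers above the points and the mean ± SD as a bar beside each group. Obese replicate 3 was the highest library for Sox10, S100b and Cdh19, and treated replicates 2 and 3 were the highest for Mbp and Pmp22.

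In obese against control hearts, 0 of the 5 genes passed, against 30.1% of the 23779 genes tested (14.4% higher and 15.7% lower). At an unadjusted p under 0.05 there was 1, S100b. The median log2 fold change of the 5 genes was 0.17, beside 0.107 for all genes, and 0 of the 5 separated the groups without overlap, against 28.5% of genes tested (13.8% higher and 14.7% lower). In treated against obese hearts 0 of the 5 passed, and 0% of all genes did by edgeR's quasi-likelihood test. At an unadjusted p under 0.05 there was 1 of the 5, Pmp22, and 2425 genes in all. DESeq2 called 51 genes higher and 80 lower and limma voom 1 lower in that comparison, none of them among the 5. The groups were separate for 0 of the 5, against 10.1% of genes tested (4.68% higher and 5.45% lower).

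In treated against control hearts 1 of the 5 genes passed, against 15.8% of genes tested (7.43% higher and 8.39% lower). Treated and control libraries were separate for Sox10, Cdh19 and Pmp22, all higher in treated libraries. Over all genes tested 27.9% were separate, 13.7% higher and 14.1% lower. The median log2 fold change was 0.69, beside 0.053 for all genes. The comparisons share libraries, so their values are not independent of each other.

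**Figure D2:**
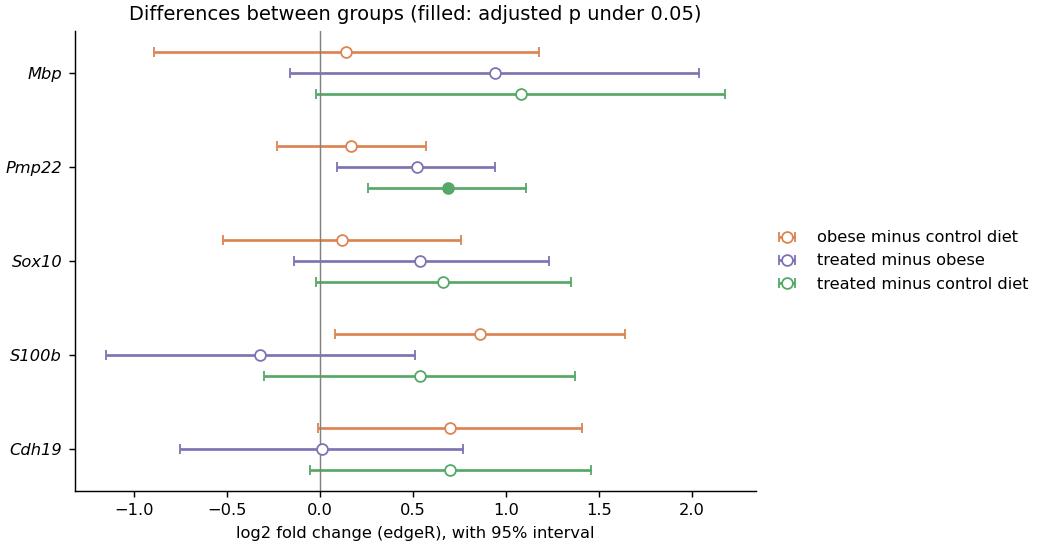
Log2 fold change of each gene (horizontal axis) with its 95% interval in the 3 comparisons, from edgeR, with a filled point where the adjusted p was under 0.05. The filled point is Pmp22 in treated against control hearts, at 0.69, and the intervals of Mbp reach from -0.02 to 2.18 in the same comparison.

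The libraries with the most atrial marker RNA held high levels of these genes. Mbp was 7.43 to 10.3 CPM in obese replicate 3 and treated replicates 2 and 3, and 2.07 to 5.28 CPM in the other 8 libraries. Pmp22 was 32.3 to 44.5 CPM against 18.1 to 27.1 CPM. Sox10 was 1.94 to 2.4 CPM against 0.787 to 1.66 CPM. For these 3 genes of 5 the ranges did not overlap, against 4.67% of genes tested for which all 3 libraries lay above the other 8. S100b was 1.01 to 1.98 CPM against 0.462 to 1.12 CPM and Cdh19 was 11.8 to 25.2 CPM against 7.01 to 12.9 CPM, both with overlap. The same 3 libraries held more RNA of other kinds of heart tissue. Summed conduction system markers were 354, 253 and 308 CPM against 74.6 to 167 CPM, and mesothelial markers 36.7, 113 and 69.5 CPM against 6.21 to 18.3 CPM. Summed fibroblast markers were 1020, 999 and 865 CPM against 456 to 899 CPM, with overlap. The part of any of these in the levels of the 5 genes was not tested beyond the covariate fits above. In bulk RNA, fewer cells of a type and less RNA per cell cannot be told apart.

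**Figure D3:**
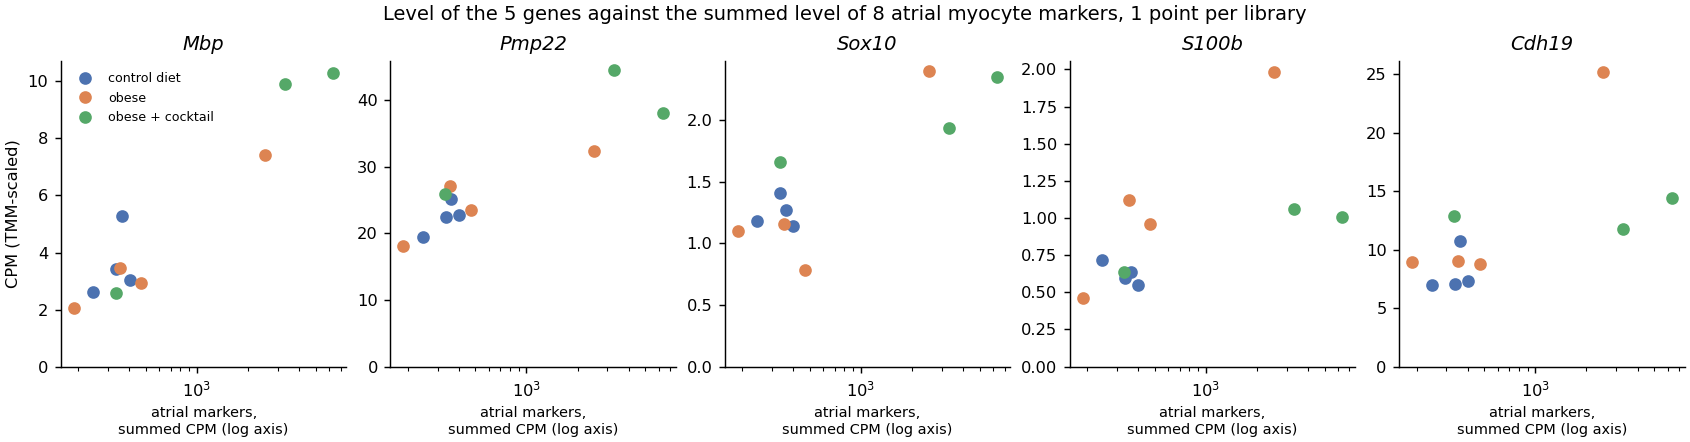
Level of each gene in CPM (vertical axes) against the summed CPM of 8 atrial myocyte markers (horizontal log axes), 1 point per library, coloured by group. The 3 libraries at 2510, 3290 and 6340 CPM of atrial markers lie above the other 8 for Mbp, Pmp22 and Sox10.

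Other genes of Schwann cells were read from lists of 15 transcription factors, 6 compact myelin genes, 16 genes of non-compact myelin and the node, 19 markers of non-myelinating cells, and 20 ligands and receptors between axon and Schwann cell. Several markers of myelinating Schwann cells were at or near 0. Pmp2, a myelin fatty acid binding protein, had 28 counts in all libraries together and Mag, an adhesion protein facing the axon, 29. Gjb1, the connexin of Schwann cell myelin, was at 0 in every library. Markers of non-myelinating cells were detected. Scn7a, a sodium channel gene, stood at 9.85 CPM per kilobase and Kcna1, a potassium channel gene, at 1.2. Ngfr, the low-affinity neurotrophin receptor, was low at 0.113 CPM per kilobase. So among the genes of the myelin sheath Mbp and Pmp22 were detected together with Mal and Cnp, while Pmp2, Mag and Gjb1 were at or near 0.

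**Figure D4:**
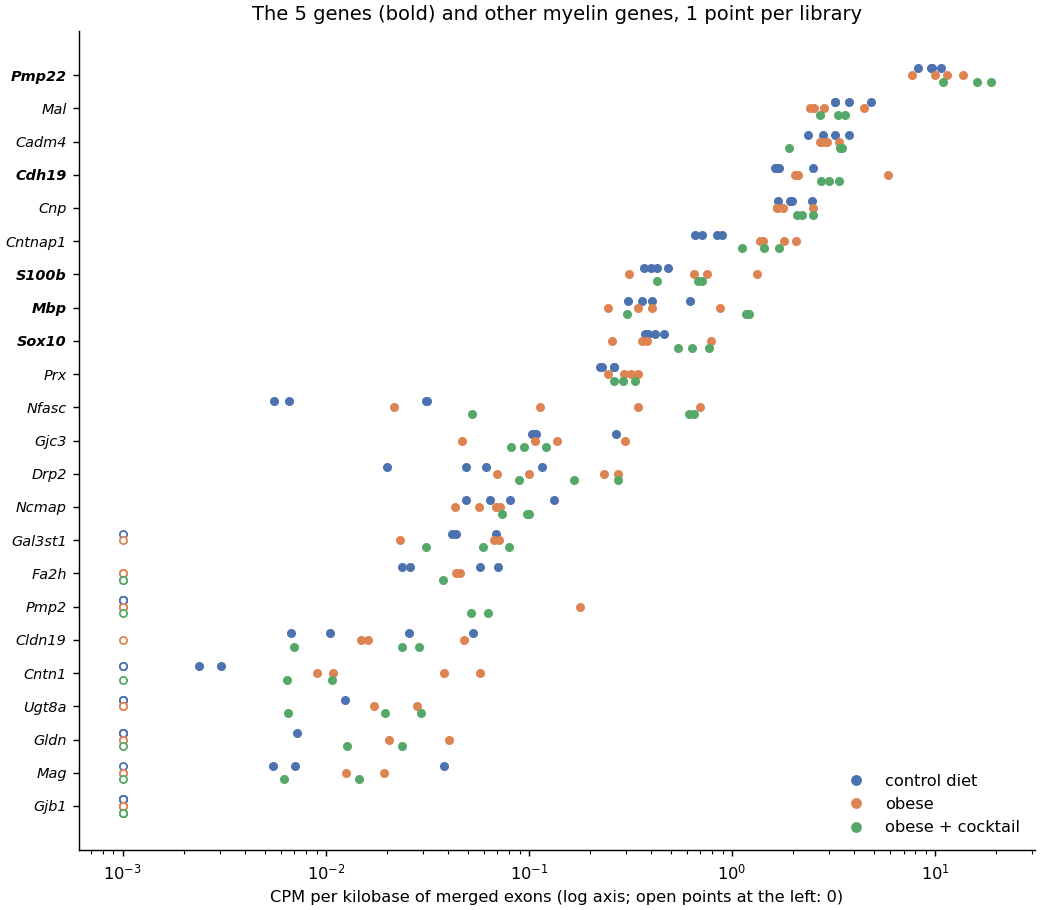
CPM per kilobase of merged exons (horizontal log axis, with 0 drawn as open points at the left) of the 5 genes, in bold, and of other myelin genes, 1 point per library. Pmp22 lies at the top with 11.5 over all libraries, while Mag lies at 0.0094 and Gjb1 at 0.

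Among Schwann cell transcription factors, 12 were tested and 1 rose with the diet, beside 14.4% called higher over all genes. Egr2, the partner of SOX10 at myelin genes, went from 0.325 ± 0.0194 (SD, n = 4) to 0.942 ± 0.62 CPM (SD, n = 4), with a log2 fold change of 1.53 (edgeR adjusted p = 0.0214). Leaving out control replicate 1, 3 or 4, or obese replicate 2, ended that call (edgeR adjusted p from 0.0503 to 0.0835). The list's median was 0.01 for obese against control, 0.09 for treated against obese and 0.23 for treated against control, and 0 passed in the other two comparisons by edgeR (0 and 1 at an unadjusted p under 0.05).

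Among compact myelin genes, 5 were tested, Mbp and Pmp22 included. Pmp22, with the values given above, was the only one to pass in treated against control hearts, beside 7.43% called higher over all genes. The list's median log2 fold change was 0.69. Mal, a proteolipid of myelin and of epithelia, averaged 10.4 ± 2.1 CPM in controls (SD, n = 4), 8.5 ± 2.64 CPM in the obese group (SD, n = 4) and 8.93 ± 1.26 CPM in the treated group (SD, n = 3). Its groups overlapped, and its log2 fold change was -0.29 for obese against control (edgeR adjusted p = 0.283) and -0.22 for treated against control (edgeR adjusted p = 0.508).

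Among genes of non-compact myelin and the node, 10 were tested and Cntnap1 and Nfasc rose, in obese and in treated against control hearts. Over all genes 14.4% and 7.43% were called higher in these comparisons. Cntnap1, an axonal protein of the paranode, averaged 4.56 ± 0.641 CPM in controls (SD, n = 4). It averaged 9.81 ± 1.95 CPM in the obese group (SD, n = 4) and 8.34 ± 1.72 CPM in the treated group (SD, n = 3). Its log2 fold change was 1.10 (edgeR adjusted p = 0.000925) and 0.87 (edgeR adjusted p = 0.0102). Nfasc, a cell adhesion gene of the node, was 0.308, 4.86, 9.84 and 1.6 CPM in obese replicates 1 to 4 and 0.739, 8.68 and 9.2 CPM in treated replicates 1 to 3, against 0.0785 to 0.445 CPM in controls. It passed with log2 fold changes of 3.98 (edgeR adjusted p = 0.0357) and 4.56 (edgeR adjusted p = 0.0411). Leaving out any 1 control library, among others, ended both calls of Nfasc (edgeR adjusted p from 0.0507 to 0.123). Its highest libraries were obese replicate 3 and treated replicates 2 and 3, those with the most atrial marker RNA.

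Among markers of non-myelinating cells, 17 were tested. Over all genes 14.4% were called higher and 15.7% lower with the diet, and 7.43% and 8.39% in treated against control hearts. With the diet 0 rose and 2 fell: Art3, a surface protein gene at 56.7 CPM per kilobase (log2 fold change -0.62, edgeR adjusted p = 0.0101), and the collagen gene Col28a1 (-1.33, edgeR adjusted p = 0.0115). The level of Art3 was far above that of Sox10 (0.488 CPM per kilobase) and Pmp22 (11.5). Bulk counts cannot say which cells it came from. In treated against control hearts Matn2, a matrix protein gene (0.70, edgeR adjusted p = 0.0298), and the adhesion gene Ncam1 (1.66, edgeR adjusted p = 0.042) rose. Col28a1 (-1.35, edgeR adjusted p = 0.03) and Adam23 (-0.55, edgeR adjusted p = 0.0378) fell. Each of these 4 calls was lost without treated replicate 2 and without treated replicate 3, among others (edgeR adjusted p up to 0.155).

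Among ligands and receptors all 20 were tested. With the diet 2 rose and 3 fell, beside 14.4% higher and 15.7% lower over all genes. Ntrk3, a neurotrophin receptor (0.91, edgeR adjusted p = 0.0107), and Ret, the receptor kinase of GDNF signals (0.94, edgeR adjusted p = 0.0234), rose. Gfra1, the partner of RET, fell from 17.8 ± 1.9 (SD, n = 4) to 9.7 ± 2.27 CPM (SD, n = 4; log2 fold change -0.87, edgeR adjusted p = 0.0069). Dag1, the gene of dystroglycan, a laminin receptor, fell as well (-0.43, edgeR adjusted p = 0.0448). It is named for completeness after its values were seen. Its value was 0.08 with the intronic share as a covariate. Erbb3, the neuregulin receptor, was 16.8 ± 1.66, 13.3 ± 1.05 and 11.8 ± 0.643 CPM in the 3 groups and fell in obese (-0.34, edgeR adjusted p = 0.0261) and treated hearts (-0.50, edgeR adjusted p = 0.0132) against control. With library totals unscaled, Erbb3 in obese against control was 0.09. In treated against control hearts Gfra1 fell as well (-1.05, edgeR adjusted p = 0.0098) and Adgrg6, an adhesion receptor needed for myelination, rose (1.15, edgeR adjusted p = 0.0298). The calls of Ret, of Erbb3 and Dag1 with the diet and of Adgrg6 were each lost without any 1 of several libraries (edgeR adjusted p from 0.0501 to 0.135). In treated against obese hearts 0 genes of these 5 lists passed by edgeR's quasi-likelihood test. At an unadjusted p under 0.05 there were 0 transcription factors, 1 compact myelin gene, 0 genes of non-compact myelin and the node, 1 non-myelinating marker and 4 ligands or receptors. The medians of the last 3 lists in obese against control were 0.04, 0.27 and 0.13, and in treated against control 0.22, 0.35 and 0.06, beside 0.107 and 0.053 for all genes.

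Markers of other cells that express some of the 5 genes were read beside them. Oligodendrocytes, the myelin cells of the brain, also make Mbp, and their markers Mog and Mobp reached at most 0.154 and 0.212 CPM. Aspa, an enzyme gene of that list that other tissues also express, rose with the diet (0.82, edgeR adjusted p = 0.00385). Melanocytes come from the same neural crest lineage as Schwann cells and express Sox10. Tyr and Tyrp1, enzymes of pigment synthesis, were at 0 in all 4 control libraries and reached 0.511 and 1.79 CPM in obese replicate 3. Mlana was 1.93, 2.93 and 8.01 CPM in obese replicate 3 and treated replicates 2 and 3, and at most 0.364 CPM in the other 8 libraries. With the diet Pmel (1.27, edgeR adjusted p = 0.0176) and Tyr (edgeR adjusted p = 0.0278, with no fold given against controls at 0) rose and Mitf fell (-0.49, edgeR adjusted p = 0.0048). Leaving out control replicate 1 or obese replicate 3 ended the call of Pmel (edgeR adjusted p from 0.054 to 0.0546). Tyr did not pass once control replicate 1, 3 or 4, or obese replicate 2 or 3, was left out (edgeR adjusted p from 0.0526 to 0.0614), nor with no low-count filter or with limma voom. In treated against control hearts Mlana (6.33, edgeR adjusted p = 0.0218), Pmel (1.29, edgeR adjusted p = 0.0362) and Dct (1.33, edgeR adjusted p = 0.0386) rose and Mitf fell (-0.44, edgeR adjusted p = 0.0241). Each of these last 4 calls was lost without any 1 of several libraries (edgeR adjusted p from 0.0501 to 0.165). Of 19 neuronal markers 10 were tested, and with the diet 5 were higher and 5 lower, at a median log2 fold change of -0.05. Those that passed numbered 2, both higher, beside 14.4% called higher over all genes. Dbh, which makes noradrenaline, and Tubb3 rose (2.60 and 1.59, edgeR adjusted p = 0.000373 and 0.00861). They also rose in treated against control hearts (2.42 and 1.44, edgeR adjusted p = 0.00172 and 0.0321), and leaving out single libraries ended only that last call of Tubb3. Among 10 fibroblast markers, which matter because fibroblasts make Pmp22, 2 rose with the diet, beside 14.4% called higher over all genes. They were Pi16 (0.77, edgeR adjusted p = 0.00192) and Lum (0.97, edgeR adjusted p = 0.0378). The call of Lum was lost in 12 of 27 alternatives, among them leaving out any 1 of 7 libraries (edgeR adjusted p from 0.0529 to 0.103). The summed level of the fibroblast markers was 456, 899, 1020 and 595 CPM in obese replicates 1 to 4. It was 499, 999 and 865 CPM in treated replicates 1 to 3, against 609 to 761 CPM in controls. Obese replicates 2 and 3 and treated replicates 2 and 3, the highest libraries by this sum, were also the highest for Pmp22. Of 10 adipocyte markers 6 rose and 1 fell with the diet, beside 14.4% called higher and 15.7% lower over all genes. Adipoq was at 0 in 3 of 4 control libraries. The fits with the adipocyte score given above cannot tell it apart from the diet. The part of these cells in the levels of the 5 genes was not otherwise tested.

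For each of the 5 genes, the genes with the most similar pattern were taken by Pearson's r of log2 CPM over the 11 libraries, among about 12498 genes with a mean of at least 1 CPM. These r describe libraries that share group and tissue makeup. Mbp was nearest to Creb3l2 (0.976), C1ra (0.974), Timp2 (0.964) and Zbtb4 (0.962). Pmp22 was nearest to Cyp2s1 (0.972), Olfm1 (0.961), Ahnak2 (0.959) and the mesothelial marker Msln (0.951). Sox10 was nearest to Shpk (0.931), Pex5l (0.916), Serpinb8 (0.915) and Nr2f2 (0.907). S100b was nearest to Naalad2 (0.94), Ptges (0.932), Zfp677 (0.93) and Zc3h12b (0.926), and Cdh19 to Lin9 (0.883), Sntg1 (0.879), Zfp141 (0.874) and Brip1os (0.871). In none of the 5 lists did another of the 5 genes appear. After removing group means, the nearest genes were Shpk for Sox10 (0.981), Zfp677 for S100b (0.967), Zfp68 for Cdh19 (0.937) and Serping1 for Pmp22 (0.99).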

How the data were processed

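Total RNA of mouse hearts was sequenced, and the authors deposited 1 table of whole-number counts per Ensembl gene for 11 libraries. Per the submitters' processing notes, cutadapt, HISAT2, StringTie and the build GRCm38 were used, with no versions. No source used here says whether the counts are counted reads or coverage estimates, or whether strand was used. Groups follow the sample titles. Nothing says that libraries came from separate animals. P-values therefore reflect variation among these libraries only, and some of it may be technical.

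Of 55487 identifiers, 55227 were matched to GENCODE M21 (GRCm38). Genes were filtered with filterByExpr (minimum count 10, minimum total 15), which left 23779. edgeR 4.0.16 (R 4.3.3; TMM, robust quasi-likelihood) fitted the 3 groups jointly over the 11 libraries, with Benjamini-Hochberg adjustment over all genes tested and a threshold of 0.05. The common BCV (biological coefficient of variation) was 0.259. Simulated counts for obese against control covered 23779 genes, with changes set only in genes with a mean above 1 CPM, 100 at each fold. Of these, 71% of 2-fold and 97% of 4-fold changes were recovered, and 11 unchanged genes were called. S100b, at a mean of 0.884 CPM, lies below that level. Noise was drawn independently for each gene, so differences in tissue makeup between libraries were not simulated.

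Alternatives used DESeq2 1.42.0, limma 3.58.1 voom, other scalings, filters and covariates, and left out libraries. The 5 genes and the 18 other lists were chosen with earlier results of these data known. From each list up to 4 genes past the threshold with the smallest p could be named. Like genes were the 4 with the highest Pearson's r. A few genes chosen this way are left out of the text.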

Additional observations from a re-analysis of the deposited data

Results flagged for a closer look

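In groups of 4, a library was marked where its gap to the nearest other library, over the group's range, passed Dixon's 95% critical value. Of 113 groups, from 57 named genes, 11 held such a library. The critical value marks about 1 in 20 groups of independent, normally distributed values. Most of these genes were named for passing a test in the same libraries, and all share those libraries. That rate therefore cannot be set against the 11. Cdh19 was 10.7 CPM in control replicate 1, against 7.01 to 7.3 CPM in the other control libraries (ratio 0.921). In obese replicate 3 Cdh19 was 25.2 CPM, and the nearest obese library held 9.02 CPM (ratio 0.984). Among the wider Schwann cell lists, Adgrg6 was 2.12 CPM in control replicate 4 (nearest 3.93) and Matn2 was 16.4 CPM in control replicate 1 (nearest 11.2).

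Obese replicate 3 was also marked for genes of other cell types. The melanocyte gene Mlana was 1.93 CPM there (nearest 0.364), the conduction system gene Vsnl1 2.83 CPM (nearest 0.321) and the mesothelial gene Krt8 0.176 CPM (nearest 0.0472). Among controls, Lrrn4 was 0.662 CPM in replicate 3 (nearest 0.241) and Pdgfrb 76.9 CPM in replicate 2 (nearest 81.8). Adipoq was 0.0624 CPM in control replicate 4 and Lep 0.0337 CPM in control replicate 3. The other control libraries were at 0 for each, which fixes the ratio at its maximum.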

How the results depend on the processing

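The number of the 5 genes that passed in obese against control hearts was 0, and 3 with library totals unscaled (S100b, Cdh19 and Pmp22). It was 0 to 1 when single libraries were left out. In treated against control hearts it was 1, and 4 with library totals unscaled, 2 with only the 2 groups compared, and 0 with a replicate block. It was 0 with a covariate (the atrial score, the adipocyte score or the intronic share), and 0 in 8 libraries without the 3 of the highest atrial score. It was 0 to 2 when single libraries were left out. In treated against obese hearts it was 0 under all alternatives run. Unscaled totals moved the median of all genes by 0.42 (log2) in obese and 0.416 in treated against control, and upper-quartile scaling by 0.102 in obese against control.

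Replicate numbers were not taken to pair the libraries, since no label says so and not every correlation was over 0.1. The correlation of deviations between libraries of 1 number was 0.003, 0, 0.143 and 0.127 for obese and control, and 2 of 4 libraries were nearest to their own number. It was 0.562, 0.072 and 0.471 for treated and obese, with 2 of 3 nearest to their own number, and 0.007, -0.408 and 0.102 for treated and control, with 1 of 3. With the replicate block, Pmp22 in treated against control was 0.63 (edgeR adjusted p = 0.0619).

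Among named values that passed the test, 9 changed sign under an alternative, none of them that of Pmp22. With library totals unscaled, obese against control gave Erbb3 0.09 and Tek 0.01. With the intronic share as a covariate it gave Myl2 0.20, Pln 0.10 and Dag1 0.08. With the adipocyte marker score as a covariate, treated against control gave Krt8 -0.74, Lrrn4 -0.30, Ncam1 -0.02 and Plin1 -0.21. Of 375 alternative values of the 5 genes in comparisons that did not pass, 33 had the opposite sign. With the adipocyte score, obese against control gave Mbp -1.17, Sox10 -0.51, S100b -0.09 and Pmp22 -0.36. That score and the intronic share each separated control from obese libraries, so fits with them cannot tell them apart from the diet. The cause was not tested in any of these.

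Genes called in obese against control numbered 3429 higher and 3737 lower, 9061 and 960 with unscaled totals and 35 and 86 after adding the intronic share, and 2190 and 2117 higher without control replicate 1 or 4. In treated against control they numbered 1766 and 1994. They were 6911 and 389 with unscaled totals, 709 and 649 with the adipocyte score, 209 and 301 with the intronic share and 239 and 139 in the 8 libraries. They were 821 and 1036 without control replicate 1, 783 and 1033 without control replicate 4 and 459 and 552 without treated replicate 3. Higher calls were 1085 without control replicate 3, and lower calls 1265 without treated replicate 1. In treated against obese they numbered 0, 15 higher and 9 lower without obese replicate 3, and 2 and 3 in the 8 libraries. Upper-quartile scaling, no low-count filter, protein-coding genes only and the adipocyte score each gave 1 and 1. Few counts limit Mag and Pmp2, at 29 and 28 in all libraries.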
